A study of Homo sapiens with 16 samples.

Results

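The genes described here are 36 neighbours on the long arm of human chromosome 1, from G0S2 to TP53BP2 in bands 1q32 to 1q41, read out by the exon-level probe sets that name 1 of them and no other gene. The 36 genes are among 18656 with a single-gene probe set. They hold 482 of the 257430 exon-level probe sets of the array table, and 440 of the 482 passed a filter on low signal. An exon-level probe set is a small group of array probes that reports a piece of a transcript, about an exon. The genes were chosen because the array groups differed in them, so every value of these genes set between the induction labels below is a description, given without a test.

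The samples came from L1236, an established line of human Hodgkin lymphoma, a B-cell lymphoma whose malignant cells are the Hodgkin and Reed-Sternberg cells. All cells had been infected with a retrovirus that carries a short hairpin RNA against RELB (REL-B in the labels), an NF-kB protein that enters the nucleus when the alternative branch of that pathway is active. Infected cells were split, and 4 arrays are labelled infected induced shREL-B (given doxycycline, which switches the hairpin on) and 4 infected uninduced shREL-B (same infection, no doxycycline). Each label was measured once for each combination of B_1 or B_4 with a last number of 1 or 4, codes whose meaning the labels do not give, and these combinations are called replicates 1 to 4 (B_1 with 1, B_1 with 4, B_4 with 1, B_4 with 4). Arrays of both labels with the same codes are set side by side below as pairs by title only. They did not deviate together, which cannot tell whether they shared a culture or batch. Nothing says that the 4 arrays of a label came from separate cultures, so their spread may be technical, and no array of uninfected cells or of another hairpin was used here.

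RELB itself averaged 7.25 ± 0.11 in arrays labelled induced and 7.40 ± 0.13 in arrays labelled uninduced (gene-level log2 signal, SD, n = 4 each), a difference that an exact two-sided permutation test did not separate (p = 0.171, where 0.0286 is the smallest possible). The groups are therefore called by their labels throughout. Of 6 Hodgkin cell markers, gene-level log2 means ran from 6.56 to 11.81 in arrays labelled induced and from 5.87 to 10.90 in arrays labelled uninduced. In arrays labelled induced, against arrays labelled uninduced, the receptor TNFRSF8 (CD30) stood at 11.59 against 6.89, the B-lineage factor PAX5 at 11.81 against 9.05, the adaptor TRAF1 at 8.58 against 5.87 and the transcription factor IRF4 at 11.65 against 10.90. The actin-bundling protein FSCN1 went the other way, at 6.91 against 8.75, and the chemokine CCL17 stood at 6.56 against 6.59. The 4 T-cell markers (CD3D, CD3E, CD3G and CD2) had means from 4.32 to 4.70 in arrays labelled induced and from 4.20 to 4.61 in arrays labelled uninduced. The 3 myeloid markers ran from 3.25 to 5.25 in arrays labelled induced and from 3.20 to 5.09 in arrays labelled uninduced, and the 3 fibroblast markers from 5.44 to 6.69 and from 4.85 to 6.73. The part of these marker levels in the differences below was not tested.

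A stretch of chromosome is not a pathway: these neighbours include kinetochore, ubiquitin ligase and Integrator subunits, membrane transporters, a calpain and receptor adaptors, which have no common task. Neighbouring genes can nevertheless share chromatin, enhancers and the number of copies of their segment, and gains of 1q are frequent in B-cell tumours. The arrays measured RNA only, so they hold no value for gene copies or chromatin.

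The promoter windows of 7 of the genes are shown. HHAT, VASH2 and TP53BP2 were among the lowest in arrays labelled induced, and SMYD2 and KCNK2 had the highest median differences. RCOR3 and RPS6KC1, with HHAT, were the members with a window that holds a kappaB motif, the kind of site that NF-kB dimers bind. LYPLAL1, with a lower median difference than HHAT and TP53BP2, is not shown. Nor is TRAF3IP3, whose gene means differed more (1.59) than those of SMYD2 (1.23). The sequences are from RefSeq (GRCh38.p14), 250 bases before the annotated start, 5′ to 3′ on the gene's strand. In the first 3 the capitals mark kappaB motifs, in the next 3 GC boxes (GGGCGG on either strand) and CCAAT boxes (CCAAT on either strand), and in KCNK2 none of these was found. The HHAT window is 1 of 3 in the table, the RCOR3 window 1 of 2 and the KCNK2 window 1 of 2.
HHAT promoter, chr1:210329116-210329365, plus strand: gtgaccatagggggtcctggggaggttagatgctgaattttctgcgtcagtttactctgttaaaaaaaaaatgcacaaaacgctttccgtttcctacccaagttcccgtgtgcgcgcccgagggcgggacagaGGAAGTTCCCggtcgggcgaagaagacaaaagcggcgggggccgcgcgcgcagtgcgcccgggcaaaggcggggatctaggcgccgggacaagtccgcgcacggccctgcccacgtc
RCOR3 promoter, chr1:211259116-211259365, plus strand: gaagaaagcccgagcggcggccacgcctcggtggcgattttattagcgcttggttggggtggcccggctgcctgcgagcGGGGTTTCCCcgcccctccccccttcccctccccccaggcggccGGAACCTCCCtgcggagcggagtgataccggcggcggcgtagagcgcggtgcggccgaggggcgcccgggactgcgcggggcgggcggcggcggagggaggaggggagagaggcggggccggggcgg
RPS6KC1 promoter, chr1:213050991-213051240, plus strand: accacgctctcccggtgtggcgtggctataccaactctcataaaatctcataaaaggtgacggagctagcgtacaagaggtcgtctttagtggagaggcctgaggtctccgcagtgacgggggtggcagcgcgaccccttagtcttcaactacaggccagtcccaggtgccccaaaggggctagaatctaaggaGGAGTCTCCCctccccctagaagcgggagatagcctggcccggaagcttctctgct
VASH2 promoter, chr1:212950291-212950540, plus strand: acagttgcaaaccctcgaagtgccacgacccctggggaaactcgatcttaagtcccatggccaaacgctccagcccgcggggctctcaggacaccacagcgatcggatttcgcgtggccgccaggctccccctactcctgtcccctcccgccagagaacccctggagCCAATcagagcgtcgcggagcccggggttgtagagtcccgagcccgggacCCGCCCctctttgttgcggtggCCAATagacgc
TP53BP2 promoter, chr1:223845948-223846197, minus strand: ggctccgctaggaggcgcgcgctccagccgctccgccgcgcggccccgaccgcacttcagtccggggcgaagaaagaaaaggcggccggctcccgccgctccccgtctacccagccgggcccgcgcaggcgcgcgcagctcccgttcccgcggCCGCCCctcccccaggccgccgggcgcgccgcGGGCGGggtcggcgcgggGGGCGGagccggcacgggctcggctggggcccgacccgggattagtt
SMYD2 promoter, chr1:214280909-214281158, plus strand: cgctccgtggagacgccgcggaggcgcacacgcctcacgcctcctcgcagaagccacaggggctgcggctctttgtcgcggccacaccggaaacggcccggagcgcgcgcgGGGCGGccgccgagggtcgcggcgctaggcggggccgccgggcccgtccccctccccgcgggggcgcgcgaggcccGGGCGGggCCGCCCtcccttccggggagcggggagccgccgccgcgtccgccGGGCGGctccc
KCNK2 promoter, chr1:215005292-215005541, plus strand: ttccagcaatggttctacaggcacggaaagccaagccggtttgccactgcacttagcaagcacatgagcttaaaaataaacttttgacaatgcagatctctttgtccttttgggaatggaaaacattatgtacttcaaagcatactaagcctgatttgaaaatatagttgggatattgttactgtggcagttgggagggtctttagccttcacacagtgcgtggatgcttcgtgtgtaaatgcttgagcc

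The table holds 50 such windows for 33 of the 36 genes. C1orf74, NENF and BPNT1 are named only. The kappaB consensus was found in 3 of the 50 windows (6%), against 9.96% of all 35116 windows in the table, and the AP-1 motif TGANTCA in 3 (6%), against 6.57%. The GC box was found in 29 windows (58%), against 42.6% of all, and the CCAAT box in 17 (34%), against 32%. Both strands were searched, and matches of different motifs may overlap. Each match is a string of letters and no measured binding.

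Most of these genes had less signal in the arrays labelled induced. Over the 482 probe sets the median log2 difference, labelled induced minus labelled uninduced, was -0.69, against 0.03 over all 224320 exon-level probe sets with 1 gene symbol. The median was -0.68, -0.72, -0.69 and -0.76 in replicates 1 to 4. The quartiles of the member probe sets were -1.23 and -0.10, and the extremes were -7.52 in VASH2 and 6.75 in KCNK2. In these bulk RNA samples, fewer cells that express a gene and less RNA per cell cannot be told apart.

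**Figure D1:**
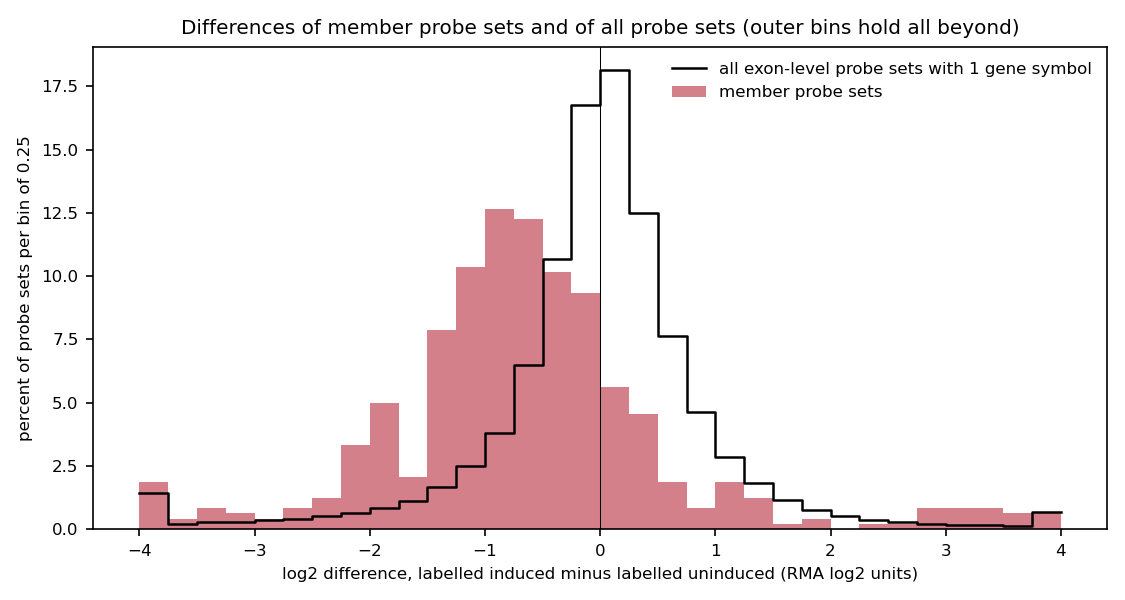
Share of probe sets (vertical axis, percent per bin of 0.25) by log2 difference, labelled induced minus labelled uninduced (horizontal axis), for the 482 member probe sets (red bars) and all 224320 probe sets with 1 gene symbol (black line). The members centre on -0.69 and the whole table on 0.03, and the outermost bins hold everything beyond 3.75.

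In all, 382 member probe sets (79.3%) were lower in the arrays labelled induced, against 48% of all probe sets. A difference of at least 2-fold (1 log2 unit) was seen downward in 168 (34.9%), against 10.2% of all, and upward in 38 (7.88%), against 9.12%. The 4 values of arrays labelled induced lay wholly below the 4 values of arrays labelled uninduced in 253 probe sets (52.5%), against 15.1% of all, and wholly above them in 41 (8.51%), against 15%. Since the genes were chosen on this contrast, nothing is read from these shares.

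By gene, 30 of 36 had a negative median difference over their probe sets (45.2% of all 18656 genes did), or 28 by the mean of the probe sets, where TRAF5 and HHIPL2 were above 0, and 13 had every probe set lower (12.2% of all). Averaged over its probe sets in each array, a gene's groups did not overlap in 23 cases with lower values in arrays labelled induced (20.9% of all genes) and in 4 with higher values (20.5%). The other 9 overlapped: G0S2, TRAF5, NEK2, ANGEL2, BPNT1, C1orf115, HHIPL2, TAF1A and DISP1. Median differences were at or under -1 in 10 genes, between -1 and -0.5 in 10, between -0.5 and -0.2 in 5, within 0.2 of 0 in 7, and above 0.2 in 4. The gene-level summary of the same arrays had the same sign as the exon-level median in 35 of 36 genes, with TRAF5 (0.04 against -0.002) as the exception, and lay within 0.3 of it in 32. The largest gap was in TRAF3IP3, at 1.97 by the gene-level summary and 1.05 by the exon-level median.

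**Figure D2:**
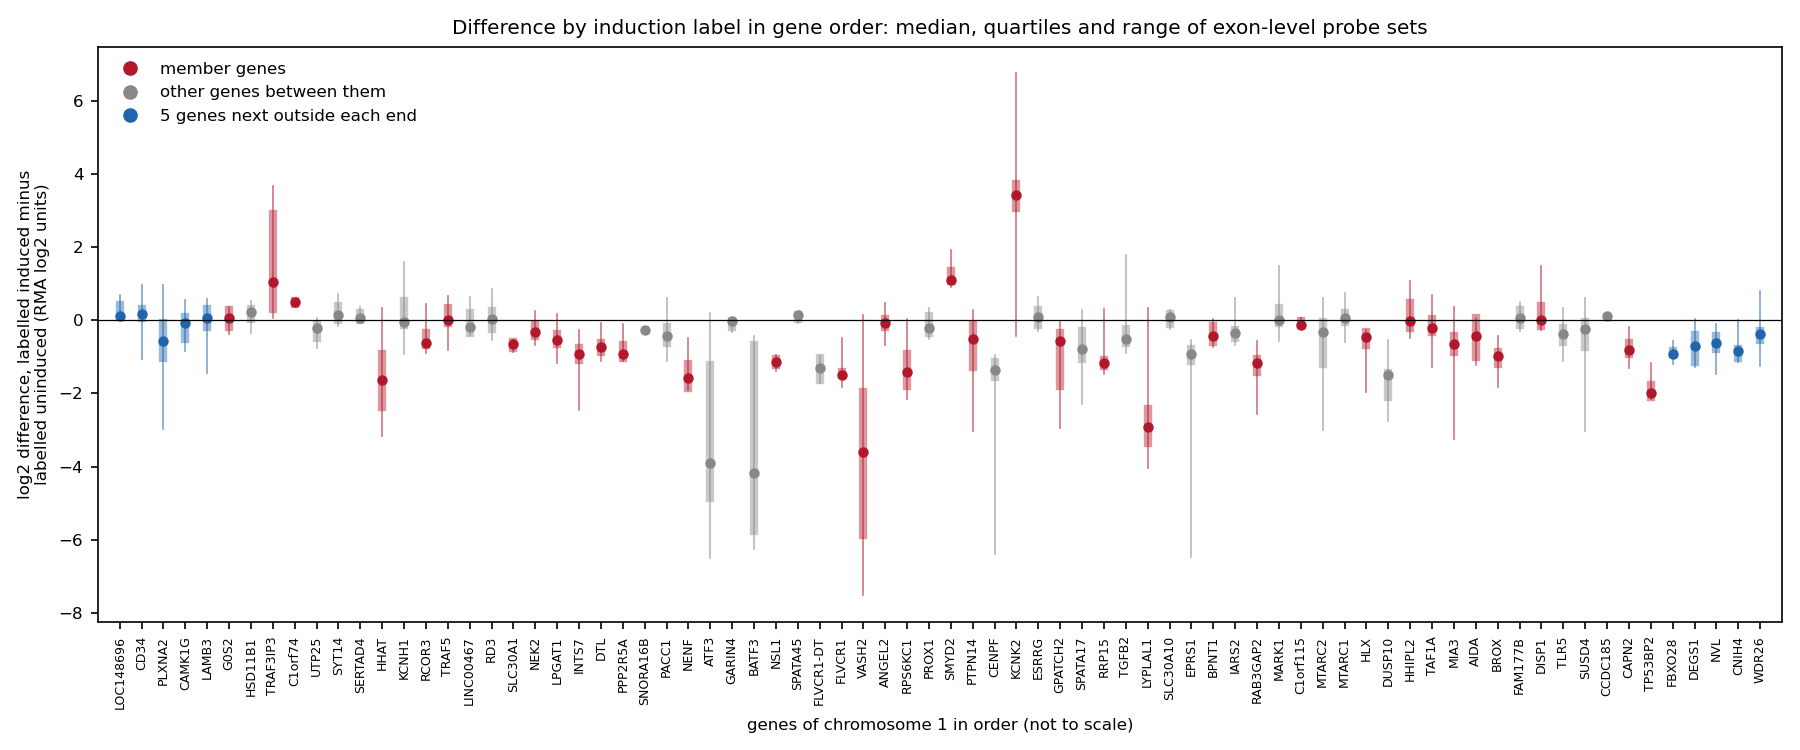
Log2 difference, labelled induced minus labelled uninduced (vertical axis), for each gene in chromosome order (horizontal axis, not to scale): dots are medians over a gene's exon-level probe sets, thick bars quartiles and thin bars the range. Red marks the 36 member genes, 30 of them below 0, grey the 30 other genes between them and blue the 5 genes next outside each end. KCNK2, SMYD2 and TRAF3IP3 stand above the rest.

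At the G0S2 end the genes did not share the lower level. G0S2, an inhibitor of the triglyceride lipase PNPLA2, had gene means of 6.41, 6.11, 6.43 and 6.46 in arrays labelled induced, against 6.30, 6.29, 6.32 and 6.37 in arrays labelled uninduced, in the order of replicates 1 to 4. The groups overlapped, replicate 2 was the only one with a lower value under the induced label, and the median difference over its 4 probe sets was 0.07. It turned to -0.10 when probe sets below the 25th percentile of signal were left out, and to -0.03 without the induced array of replicate 3.

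TRAF3IP3, an adaptor that binds TRAF3 and acts in lymphocyte development, stood at 8.33, 8.76, 7.87 and 8.63 in arrays labelled induced, against 6.81, 6.68, 6.84 and 6.92 in arrays labelled uninduced. The groups did not overlap, and the gene mean was 1.59 ± 0.15 higher (SE of the fit, log2, n = 4 each), a 3-fold difference. C1orf74, with 2 probe sets, stood at 6.58, 6.84, 6.66 and 6.64 in arrays labelled induced, against 6.18, 6.17, 6.34 and 6.07 in arrays labelled uninduced. These groups did not overlap either, with a difference of 0.49 ± 0.10. None of the 24 probe sets of TRAF3IP3 and C1orf74 was lower in arrays labelled induced.

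Just outside this end, the 5 nearest genes with probe sets were LOC148696 (median difference 0.11), CD34 (0.16), PLXNA2 (-0.55), CAMK1G (-0.08) and LAMB3 (0.06). Over their 92 probe sets the median was -0.07. PLXNA2, a semaphorin receptor, had gene means that were lower without overlap, as had 20.9% of all genes. LOC148696 had gene means that were higher without overlap, as had 20.5% of all genes, and the other 3 overlapped.

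HHAT, the enzyme that attaches palmitate to Hedgehog proteins, was the first member with lower signal. Its gene means were 6.23, 6.21, 5.82 and 6.16 in arrays labelled induced, against 7.80, 7.68, 7.60 and 7.59 in arrays labelled uninduced. No array of one label reached the range of the other, and the difference was -1.56 ± 0.10, a 2.96-fold lower level. Its 14 probe sets spread from -3.15 to 0.35, and 12 were lower without overlap. DISP1, which releases Hedgehog proteins from cells and lies near the other end, stood at 5.20, 5.42, 5.27 and 4.85 in arrays labelled induced, against 5.28, 5.28, 4.77 and 4.68 in arrays labelled uninduced. Its groups overlapped, and its median difference of 0.005 changed sign under 4 of 13 other settings.

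Among member genes alone, the 15 from HHAT to RPS6KC1 all had negative medians, although that of TRAF5 was -0.002 and changed sign under 5 of 14 settings. Counting the other genes between them too, the longest unbroken run of negative medians held 13 genes, from SLC30A1 to NSL1. It included GARIN4 (-0.03) and SNORA16B (-0.26, 1 probe set), whose groups overlapped. Runs elsewhere in the genome were not counted. RCOR3, a corepressor of the CoREST family, had a median of -0.62, with 13 of 15 probe sets lower and none by 2-fold. TRAF5, an adaptor of tumour necrosis factor receptors that feeds NF-kB, did not share this level. It stood at 7.69, 7.41, 7.04 and 7.10 in arrays labelled induced, against 7.19, 7.24, 7.38 and 7.20 in arrays labelled uninduced, so the arrays labelled induced lay above the uninduced arrays of the same codes for both B_1 titles and below them for both B_4 titles. Its 15 probe sets ran from -0.81 to 0.65, with 0 lower and 1 higher without overlap (15.1% and 15% of all were).

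The genes from SLC30A1 to PPP2R5A had moderate differences that recurred in most of their probe sets. The zinc exporter SLC30A1 had a median of -0.65, with all 3 probe sets lower. The mitotic kinase NEK2 had -0.32, with 3 of 10 probe sets lower without overlap, and the acyltransferase LPGAT1 had -0.53, with 5 of 9. Of all probe sets, 15.1% were lower without overlap, and the gene means of NEK2 overlapped. The Integrator subunit INTS7 was lower in 23 of 23 probe sets (median -0.93) and the ubiquitin ligase receptor DTL, which targets replication factors for destruction, in 17 of 17 (median -0.72). PPP2R5A, a regulatory subunit of protein phosphatase PP2A, was lower in 14 of 14 (median -0.91).

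From NENF to RPS6KC1 most differences were larger. NENF, a secreted neurotrophic protein, stood at 7.38, 7.08, 7.53 and 7.28 in arrays labelled induced, against 8.67, 8.77, 8.81 and 8.72 in arrays labelled uninduced. The groups were more than 1 log2 unit apart at their nearest arrays, and the level was 2.68-fold lower (-1.42 ± 0.09). NSL1, a subunit of the MIS12 kinetochore complex, was lower without overlap in 7 of 7 probe sets, which ran from -1.39 to -0.94.

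FLVCR1, a membrane transporter of choline, stood at 7.66, 7.45, 7.58 and 7.39 in arrays labelled induced, against 8.85, 8.63, 9.18 and 9.03 in arrays labelled uninduced. The groups did not overlap, and the level was 2.65-fold lower (-1.40 ± 0.10), and 12 of its 13 probe sets were lower by at least 2-fold. RPS6KC1, a kinase-like protein with a phosphoinositide-binding domain, had a median of -1.41, with 15 of 19 probe sets lower without overlap. ANGEL2, an RNA phosphatase between VASH2 and RPS6KC1, had a median of -0.07. Of its 12 probe sets, 1 was lower without overlap, against 15.1% of all probe sets.

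VASH2, a vasohibin that removes the terminal tyrosine of tubulin, had the lowest relative level of all members in arrays labelled induced. Its gene means were 5.85, 5.99, 5.80 and 5.82 in arrays labelled induced, against 9.99, 9.87, 9.68 and 9.64 in arrays labelled uninduced. The 2 groups lay more than 3 log2 units apart, and the gene mean was 15.3-fold lower in signal (-3.93 ± 0.09). Several of its probe sets were dim in arrays labelled induced (7909651 at 3.59 and 7909653 at 3.51, below the 25th percentile of 4.68), so this fold too may understate the difference in RNA. The probe sets differed among themselves: 8 of 18 were lower by more than 5 log2 units, and probe set 7909645 was 0.14 higher, at 10.12 ± 0.33 in arrays labelled induced and 9.98 ± 0.24 in arrays labelled uninduced (SD, n = 4 each).

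**Figure D3:**
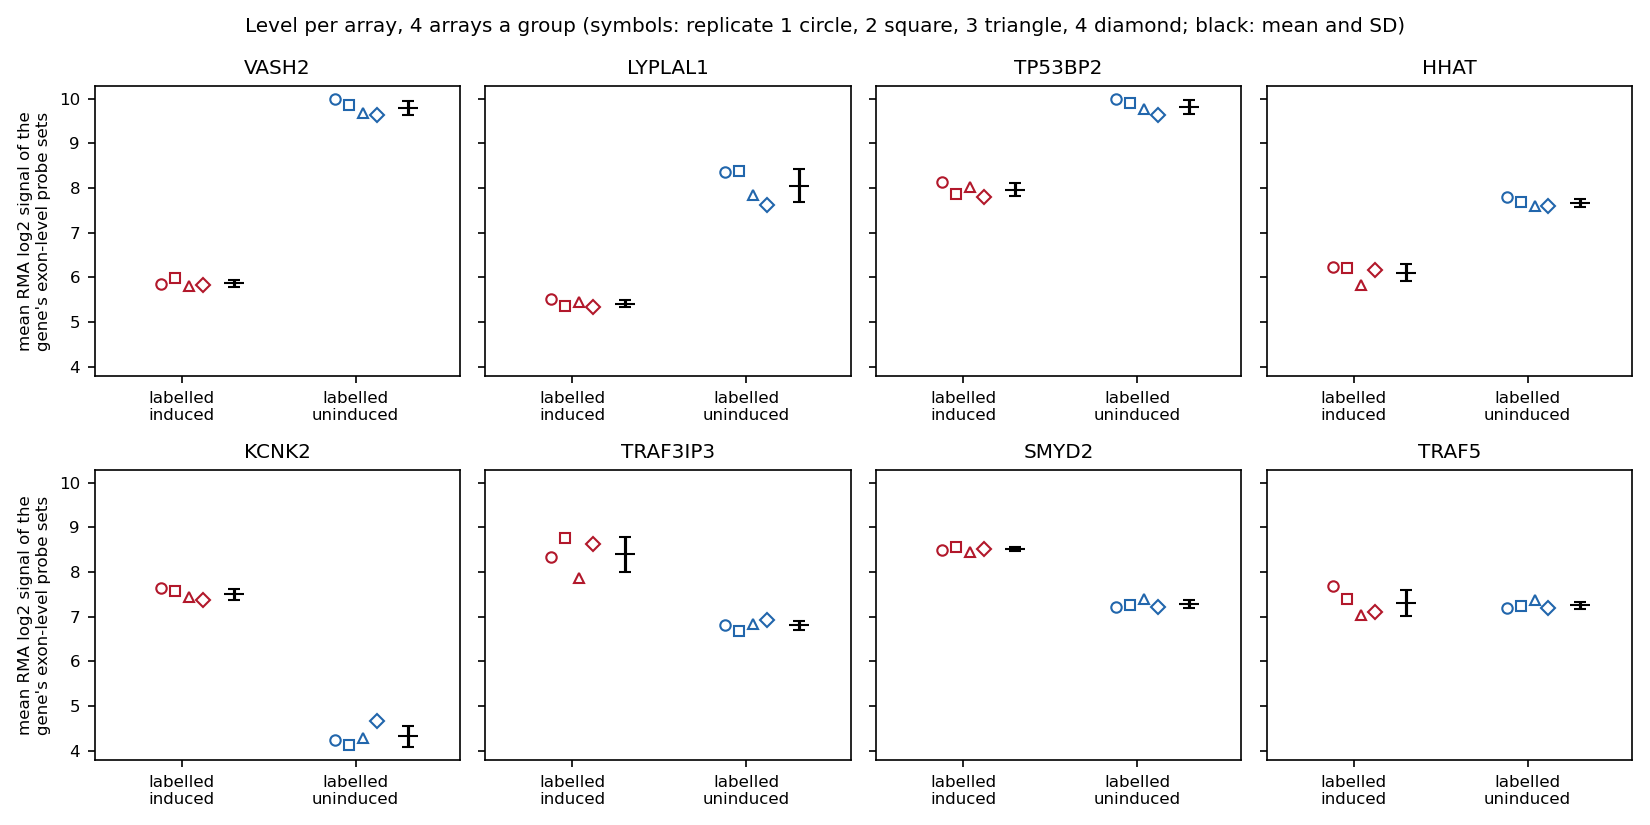
Mean RMA log2 signal of a gene's exon-level probe sets (vertical axis) in each of the 4 arrays labelled induced (red) and the 4 labelled uninduced (blue), with the mean and SD in black and a symbol for each replicate. VASH2, LYPLAL1, TP53BP2 and HHAT are lower and KCNK2, TRAF3IP3 and SMYD2 higher in arrays labelled induced, without overlap, and TRAF5 overlaps.

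SMYD2, a lysine methyltransferase, went against its neighbours. It stood at 8.51, 8.56, 8.46 and 8.52 in arrays labelled induced, against 7.21, 7.27, 7.41 and 7.22 in arrays labelled uninduced. All 16 of its probe sets were higher, from 0.90 to 1.92, and the level was 2.35-fold higher (1.23 ± 0.09). PTPN14, a tyrosine phosphatase next to it, had a median of -0.50 over 21 probe sets with a wide range, from -3.02 to 0.28. Of those 21, 11 passed the filter on low signal, and the median moved to -0.05 over the probe sets at or above the median signal of the table.

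KCNK2, a potassium channel opened by membrane stretch, had the highest relative level of the members in arrays labelled induced. Its gene means were 7.64, 7.57, 7.45 and 7.37 in arrays labelled induced, against 4.23, 4.12, 4.28 and 4.67 in arrays labelled uninduced. The groups did not overlap, and the gene mean was 3.18 ± 0.13 higher on the log2 scale, a 9.07-fold difference in signal. The mean in arrays labelled uninduced (4.32) lay below the 25th percentile of signal in the table (4.68), so this fold is a ratio of array signals and may understate the difference in RNA. Of its 13 probe sets, 11 were higher without overlap, and 2 were not. Probe set 7909735 stood at 8.18 ± 0.41 in arrays labelled induced and 8.60 ± 0.33 in arrays labelled uninduced. Probe set 7909734 was dim in both, at 3.07 and 3.09.

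The next members were lower again. GPATCH2, a G-patch protein that works with RNA helicases, was lower in 12 of 12 probe sets (median -0.57). RRP15, which acts in ribosomal RNA processing, was lower in 5 of 6 (median -1.18). LYPLAL1, a lysophospholipase-like hydrolase, stood at 5.51, 5.37, 5.45 and 5.33 in arrays labelled induced, against 8.35, 8.38, 7.86 and 7.63 in arrays labelled uninduced. Every array labelled induced was over 2 log2 units below every array labelled uninduced, and the level was 6.23-fold lower (-2.64 ± 0.12). The nucleotidase BPNT1 had a median of -0.43, with 4 of 12 probe sets lower without overlap (15.1% of all were).

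RAB3GAP2, the regulatory subunit of a GTPase activator of RAB3, has the most probe sets of the members. All 37 were lower, from -2.55 to -0.56, and 33 were lower without overlap. C1orf115 had a median of -0.13 over 3 probe sets, 0 of them without overlap, and this sign changed under 1 of 14 settings. The homeobox factor HLX was lower in 5 of 5 (median -0.46, and -0.29 without the uninduced array of replicate 1). HHIPL2 had a median of -0.02, a sign that changed under 2 of 14 settings, and its gene mean was 0.11 higher in arrays labelled induced, with overlapping groups. TAF1A, a subunit of the selectivity factor of RNA polymerase I, had -0.20, with overlapping groups in all 14 probe sets.

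Towards the TP53BP2 end the lower level returned. MIA3, a receptor that loads collagen at exit sites of the endoplasmic reticulum, was lower in 29 of 32 probe sets (median -0.64). BROX, a partner of the ESCRT machinery, was lower in 14 of 14 (median -0.99), and CAPN2, the catalytic subunit of m-calpain, in 21 of 21 (median -0.81). TP53BP2 (ASPP2), which binds p53 and favours its death-promoting targets, stood at 8.13, 7.87, 8.03 and 7.81 in arrays labelled induced, against 9.99, 9.90, 9.77 and 9.63 in arrays labelled uninduced. It was 3.65-fold lower (-1.87 ± 0.09), and all 20 probe sets lay between -2.15 and -1.17.

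Outside TP53BP2, the 5 nearest genes with probe sets were lower as well: FBXO28 (median -0.91), DEGS1 (-0.69), NVL (-0.63), CNIH4 (-0.84) and WDR26 (-0.37). The gene means of all 5 were lower without overlap (20.9% of all genes were), and 60 of their 63 probe sets were lower (48% of all probe sets were). The median over these probe sets was -0.58.

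Between the first and last member lie 30 further genes with exon-level probe sets, of which 19 (63.3%) had a negative median, against 45.2% of all. Their 313 probe sets had a median of -0.32. At least 2-fold lower were 71 (22.7%), against 10.2% of all probe sets, and 2-fold higher 4 (1.28%), against 9.12%. Most of the 71 lay in CENPF (20), EPRS1 (12), ATF3 (10) and DUSP10 (9), so this share describes few of the 30 genes. The 4 lowest were the AP-1 family genes BATF3 (-4.17) and ATF3 (-3.90), the MAP kinase phosphatase DUSP10 (-1.49) and the kinetochore protein CENPF (-1.35). The 4 highest were the steroid dehydrogenase HSD11B1 (0.23), SYT14 (0.15), SPATA45 (0.14) and CCDC185 (0.12). These genes were dimmer than the members: 204 of their 313 probe sets passed the filter on low signal, against 440 of 482.

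Within several genes the difference came in blocks of consecutive probe set numbers. These genes were picked after their values were seen, and the files give no position of a probe set in its transcript. In TRAF3IP3 the 10 lowest numbers (7909456 to 7909465) were higher by 2.27 to 3.67, all without overlap, whereas the other 12 (7909466 to 7909477) differed by 0.05 to 1.14, with 2 of them without overlap. The mean of the first block was 8.64, 9.06, 8.31 and 9.06 in arrays labelled induced, against 5.86, 5.42, 5.84 and 6.12 in arrays labelled uninduced. That of the second was 8.08, 8.51, 7.51 and 8.26 in arrays labelled induced, against 7.60, 7.72, 7.68 and 7.59 in arrays labelled uninduced.

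VASH2 also divided, with the opposite sign and less sharply. Its 12 highest numbers (7909649 to 7909660) differed by -7.52 to -2.70, and the 6 lowest (7909643 to 7909648) by -2.26 to 0.14. These 2 ranges nearly met, and 5 of the 6 lowest numbers were lower without overlap too. In GPATCH2 the 5 lowest numbers (7924328 to 7924332) differed by -2.94 to -0.85 and the other 7 by -0.60 to -0.06. In LYPLAL1 the lowest number (7909802) was 0.34 higher, and the other 8 were lower by amounts from -4.05 to -1.79. AIDA, an axin-binding protein, had 2 probe sets (7917149 and 7917150) at -1.21 and -0.93, both without overlap. Its other 2 (7924493 and 7924494), numbered nearer to those of GPATCH2, were at 0.07, with overlapping groups. The lower gene mean of AIDA thus came from the first 2 alone. Its median of -0.43 described neither pair and moved to -0.93 when dim probe sets were left out.

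The 10 member probe sets farthest from their own gene's median all belonged to VASH2 (6), KCNK2 (3) and LYPLAL1 (1). Over the 33 members with 4 or more probe sets, the median interquartile range of the differences within a gene was 0.36, against 0.39 over 15984 genes.

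**Figure D4:**
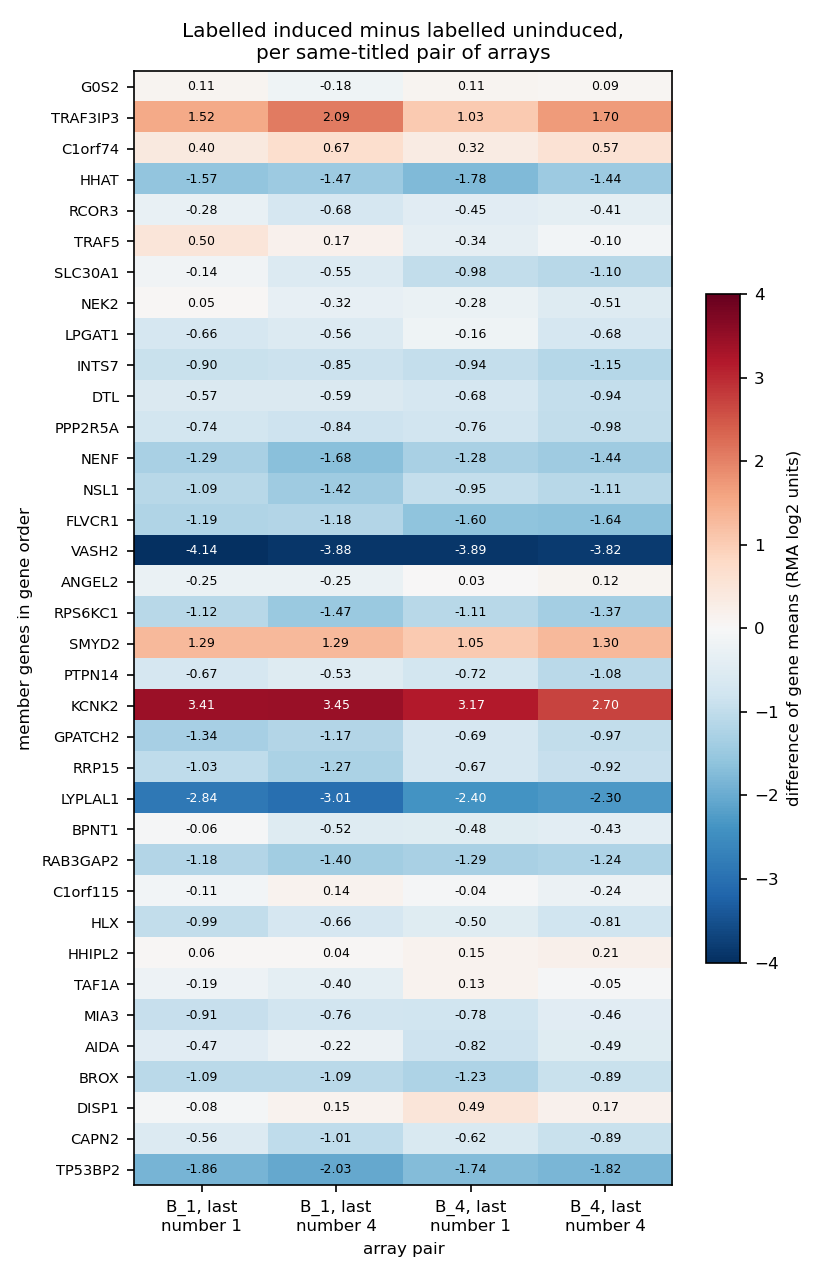
Difference of gene means, labelled induced minus labelled uninduced (colour and printed value, log2), for the 36 members in gene order (rows) and the 4 same-titled pairs of arrays (columns). Most rows hold 1 sign in all 4 pairs, and TRAF5, ANGEL2, TAF1A, DISP1, C1orf115, NEK2 and G0S2 hold both.

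The codes B_4 and B_1 and the last numbers 4 and 1 played no part in the choice of genes, so these contrasts were tested with limma. Between B_4 and B_1, 0 of 440 member probe sets passed at an adjusted p under 0.05, as did 0% of all 193072 tested, while 29 members (6.59%) had an unadjusted p under 0.05, against 7.26% of all. By gene means, 0 of 36 passed (0% of all 18656), and 5 (13.9%) had an unadjusted p under 0.05, against 12.1% of all. The 4 lowest p were those of DISP1 (-0.40 ± 0.12, limma adjusted p = 0.299, lower in B_4 in 3 of 4 comparisons), BROX (-0.29 ± 0.09, adjusted p = 0.299, 4 of 4), RRP15 (0.32 ± 0.11, adjusted p = 0.342, higher in 3 of 4) and MIA3 (-0.27 ± 0.09, adjusted p = 0.342, lower in 4 of 4). The median absolute difference was 0.12 over members and 0.10 over all genes.

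Between last numbers 4 and 1, 0 of 440 member probe sets passed (0% of all), and 29 (6.59%) had an unadjusted p under 0.05, against 5.57% of all. By gene means 0 of 36 passed, against 1 of all genes (0.00536%), and 6 (16.7%) had an unadjusted p under 0.05, against 7.33%. TAF1A had the lowest p: its 4 arrays with last number 4 stood at 5.01, 5.28, 5.41 and 5.33, and the 4 with last number 1 at 5.66, 5.82, 5.85 and 5.69. The groups did not overlap, the difference was -0.50 ± 0.10, and the limma adjusted p was 0.674. RPS6KC1 (-0.30 ± 0.09), LPGAT1 (-0.25 ± 0.10) and ANGEL2 (-0.24 ± 0.09) had the same adjusted p, each lower with last number 4 in 4 of 4 comparisons. The median over members was -0.11, against 0.00 over all genes.

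**Figure D5:**
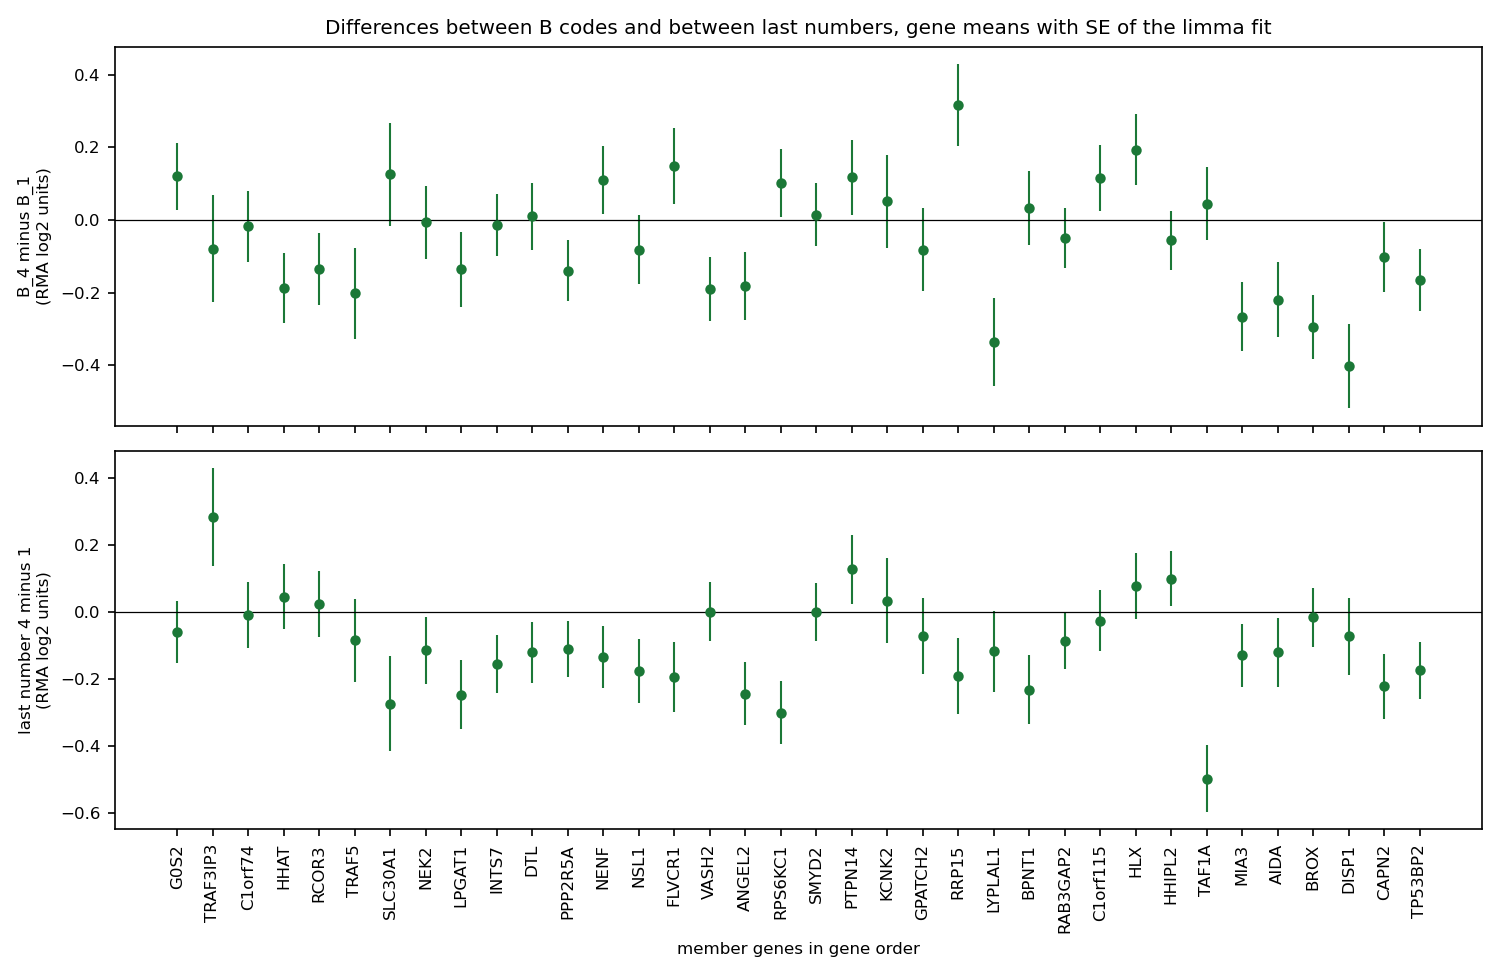
Log2 differences of gene means between B_4 and B_1 (upper panel) and between last numbers 4 and 1 (lower panel), with the SE of the limma fit, for the 36 members in gene order. Differences lie between -0.50 and 0.32, and none passed the threshold.

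Whether the difference between labels itself depended on the codes was tested as an interaction. For B code, 0 of 440 member probe sets passed (0% of all), and 30 (6.82%) had an unadjusted p under 0.05, against 7.47% of all. By gene means 0 of 36 passed, against 0.0858% of all genes, and 6 had an unadjusted p under 0.05 (16.7%, against 10.7%). The label difference of SLC30A1 was -1.04 in B_4 and -0.35 in B_1 (interaction -0.70 ± 0.19, limma adjusted p = 0.230), and that of LYPLAL1 was -2.35 in B_4 and -2.93 in B_1 (0.58 ± 0.17, adjusted p = 0.273). For TRAF5 it was -0.22 in B_4 and 0.33 in B_1 (-0.55 ± 0.18, adjusted p = 0.326), and for FLVCR1 -1.62 in B_4 and -1.19 in B_1 (-0.43 ± 0.16, adjusted p = 0.360).

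For the last number, 0 of 440 member probe sets passed (0% of all), and 22 (5%) had an unadjusted p under 0.05, against 4% of all. By gene means 0 of 36 passed (0% of all), and 1 had an unadjusted p under 0.05 (2.78%, against 3.46%). That gene was TRAF3IP3, with a label difference of 1.89 at last number 4 and 1.28 at last number 1 (interaction 0.62 ± 0.24, limma adjusted p = 1). The next were CAPN2 (-0.36), RPS6KC1 (-0.31) and NEK2 (-0.30), all with an adjusted p of 1. The median SE of an interaction was 0.18 for B code and 0.19 for last number by gene means, and 0.36 and 0.39 by probe set. Changes of the label difference near or below these sizes could not be told from the spread of the 8 arrays. Changes of several SE were not called either, such as -0.70 ± 0.19 in SLC30A1 by B code and 0.62 ± 0.24 in TRAF3IP3 by last number. The 0 calls therefore do not exclude changes of that size.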

How the data were processed

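Per the labels, fragmented sense-strand cDNA from L1236 total RNA carried biotin and was read on 8 Affymetrix arrays. The deposited values are log2 signals per probe set; RMA and Partek are named in the submitters' processing notes, without versions. That the log base is 2 rests on what RMA normally writes and on the range of values. RMA equalises arrays and compresses dim signals. No build, annotation or filter is named there. The 16 samples are the 8 arrays summarised by exon and by gene (4428 of 4428 shared features identical), so n = 4 per label. Exon-level array medians ran from 6.51 to 6.59, and precision is limited by having 8 arrays.

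Older symbols were updated through RefSeq (GRCh38.p14), which brought in the 14 probe sets of BROX (listed as C1orf58); gene order is from the same source. Descriptions used all 482 probe sets. Limma 3.58.1 (R 4.3.3) fitted induction label, B code and last number to the 193072 probe sets at or above the 25th percentile of mean signal (4.68), and to gene means over 18656 genes, with Benjamini-Hochberg adjustment; interactions had fits of their own. Scripts were tested on simulated data. Figures used matplotlib 3.10.9 in Python 3.11.15.

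The named genes are all members, the 5 next outside each end and the 4 most extreme others between them in each direction. The probe sets farthest from their gene's median and the 4 lowest p of each tested contrast are also named. GARIN4, SNORA16B and EPRS1 are named for their part in a run or a count. Members and lists were chosen with earlier results of these data known.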

Additional observations from a re-analysis of the deposited data

Results flagged for a closer look

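G0S2 had a sample far from the others: in arrays labelled induced, replicate 2 stood at 6.11, while the other 3 lay between 6.41 and 6.46, so the gap took 0.864 of the range of the group. This was 1 of 72 groups examined (36 genes, 2 labels), and chance flags about 1 in 20.

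TRAF5 and ANGEL2 had label differences of opposite sign in B_4 and B_1. Both are members whose groups overlapped, where such a split of signs can arise by chance. How often it does was not counted. TRAF5 was lower in arrays labelled induced in both B_4 pairs (-0.35 and -0.10) and higher in both B_1 pairs (0.50 and 0.16), a change of -0.55 (limma adjusted p for the interaction = 0.326). ANGEL2 was higher in both B_4 pairs (0.03 and 0.12) and lower in both B_1 pairs (-0.25 and -0.25), a change of 0.33 (adjusted p = 0.499).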

How the results depend on the processing

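The median difference over the member probe sets (-0.69) was -0.64 with median centring. It was -0.77 with the filter at the 25th percentile of signal and -0.81 with the filter at the median. The gene-level summary, with about 1 value per gene, gave -0.62, beside -0.6 for the median of the exon-level gene medians. When arrays were left out in turn, the median over exon-level probe sets ran from -0.73 to -0.68. Over the same omissions, 158 to 177 probe sets were at least 2-fold lower and 29 to 31 genes had a negative median. These counts were 157 and 28 with median centring, and 171 and 29 with quantile normalisation. With fewer probe sets left, they were 163 and 32 with the filter at the 25th percentile, and 132 and 30 with that at the median. When probe sets were averaged instead, 28 genes were negative. With the pair as a replicate block the values were unchanged (-0.69, 168 and 30), which holds by construction in a balanced design. Deviations of same-numbered arrays from their label means had correlations from -0.044 to 0.034. Those of differently numbered arrays ran from -0.134 to 0.102. These values showed no pairing, but they cannot tell whether same-numbered arrays shared a culture or batch. Quantile normalisation left the median at -0.69. Of 36 genes, 31 kept the sign of their median under every setting; G0S2, TRAF5, C1orf115, HHIPL2 and DISP1, all within 0.2 of 0, did not. Without the uninduced array of replicate 4 the median of PTPN14 was -0.32. For both codes and both interactions 0 members were called under every setting tried, including a variance trend, a threshold of 0.1 and each array left out. Signals near the bottom of the range limit what dim probe sets can show.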
